A study of Mus musculus with 64 samples.

Results

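The right ventricle (RV) of Pkp2 knockout mice that had received a late, high dose of a Pkp2 gene therapy vector was compared with the RV of untreated knockout mice. The libraries were chosen by their labels alone. The 6 RV libraries of the late-dosed group and the 4 RV libraries of the untreated knockout group made up 10 of the 64 heart libraries of the series. Animals of both groups were C57BL6 mice with the genotype αMyHC-Cre-ER(T2)/Pkp2 fl/fl, in which tamoxifen switches on a Cre recombinase under the α-myosin heavy chain promoter, so that the floxed Pkp2 alleles are removed from cardiomyocytes and kept in the other cells of the heart. Untreated knockout animals (cKO) had received the HBSS vehicle. Late-dosed animals (late AAV) had received 1 retro-orbital dose of adeno-associated virus serotype 9 (AAV9) carrying mouse Pkp2, at 1e+14 vector genomes per kg and 2.5 weeks after tamoxifen. The RV of 9 wild-type animals (WT), Cre-negative littermates given vehicle, served as a further reference. The cKO hearts had been taken 4 weeks after induction, and the late AAV and WT hearts 51 weeks after it. Treatment, age and time since induction therefore cannot be told apart between late AAV and cKO, and the late AAV libraries come from animals that lived to the later time.

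Plakophilin-2, the product of Pkp2, is an armadillo-repeat protein of the desmosome, the junction that ties the intermediate filaments of neighbouring cardiomyocytes together at the intercalated disc. Loss of plakophilin-2 is a common inherited cause of arrhythmogenic right ventricular cardiomyopathy, in which ventricular muscle is lost, fibrous tissue spreads and the heart rhythm becomes unstable. Desmosomes share the intercalated disc with adherens junctions, gap junctions and clusters of sodium channels.

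Levels below are CPM, Salmon's estimated counts scaled to a common library size, without the mitochondrially encoded genes. The scaling used TMM factors over all libraries of the series, which adjust for differences in library composition. A group is given as mean ± SD over libraries, each from 1 animal by the labels. The 10 libraries held between 8.95 M and 13.996 M counts (M, mega), of which 6.69 M to 9.79 M remained without the mitochondrially encoded genes. Libraries are named by group, ventricle and animal. Library late_RV_5814 went against itself in sex-linked genes: its RV held 2303 counts of Xist and 2602 counts over 4 Y-linked genes, while the LV library of the same animal held 24151 and 0. The other 9 RV libraries were either high in Xist (4) or high in the Y-linked genes (5). Calls of named genes that are lost without late_RV_5814 are marked as such. List counts that then change by 2 or more are given both ways, and the counts of the other lists changed by at most 1. Relative effective length is the median over genes of the log2 effective length in a library, relative to the mean over all libraries. What set it was not tested. It lay between -0.025 and -0.012 log2 units in late AAV and between 0.014 and 0.029 in cKO. Relative effective length thus separated the groups completely, and its part in the results cannot be told apart from that of the group.

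Late AAV and cKO differed over much of the transcriptome. Of 13911 genes tested, 6659 (47.9%) were called at an adjusted p below 0.05 by edgeR's quasi-likelihood test with Benjamini-Hochberg adjustment, of which 3149 were higher in late AAV (22.6% of genes tested) and 3510 were lower (25.2%). The libraries of the groups did not overlap for 35.6% of the genes tested. The fold change exceeded 2 for 3083 called genes and 4 for 737. Without late_RV_5814 there were 6006 calls, of which 5951 were among the 6659 and each of those had the same sign. TPM is the level per transcript length, here rescaled to a common sum per library after the mitochondrially encoded genes were left out. On the scale of log2(TPM + 1), limma called 5643 genes, and 69.3% of them were higher, against 47.3% of the edgeR calls. The median log2 difference of all genes was 0.14 on that scale and -0.08 in edgeR. The part of the rescaling in this difference was not tested. With relative effective length as a covariate no gene was called by edgeR, although 1244 had an unadjusted p under 0.05. The counts of list members below are read against these backgrounds, and the plot of 25 gene lists shows the members one by one.

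**Figure D1:**
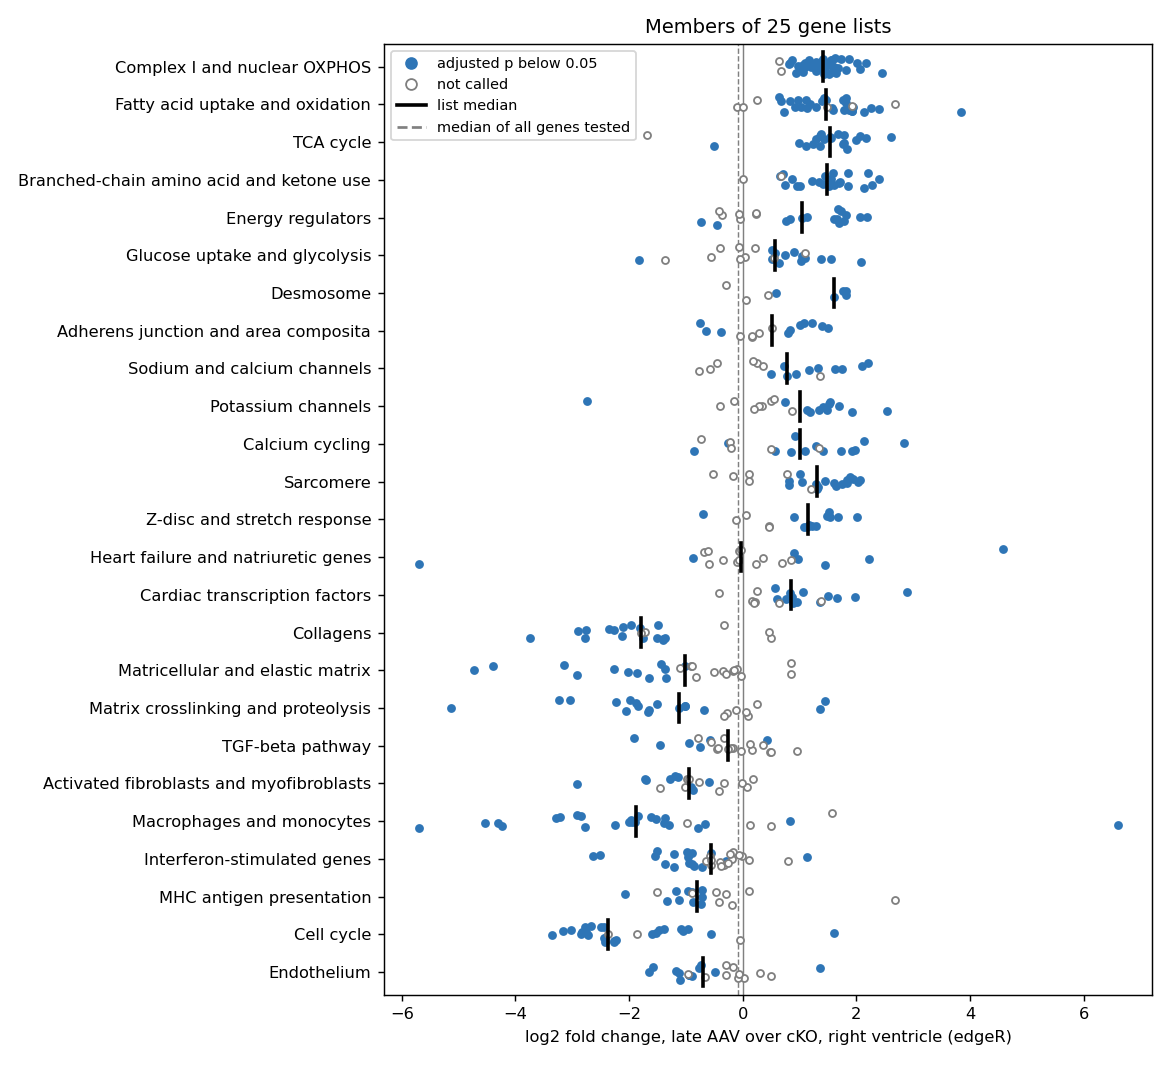
Log2 fold change (x axis, late AAV over cKO in the RV, edgeR) of the tested members of 25 gene lists (y axis), with the mitochondrial and fatty acid lists at the top and the matrix, immune and cell cycle lists below. Filled points were called, open points were not, black bars are list medians, the dashed line is the median of all genes tested (-0.08), and Pkp2 is left out as a point; the medians of oxidative phosphorylation, fatty acid, tricarboxylic acid cycle and sarcomere genes lie above 1 and those of collagens, macrophages and cell cycle below -1.7.

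Pkp2 (chr16:16031144-16090586, GRCm39) was read at 39.4, 59.8, 98.5 and 37.8 CPM in the 4 cKO libraries. In late AAV it ranged from 1069 to 3793 CPM with a median of 1786. No late AAV library was near the cKO range, and the lowest was over 10 times the highest cKO library. The mean rose from 58.9 ± 28.3 (n = 4) to 1928 ± 979.9 CPM (n = 6), a log2 fold change of 5.01 ± 0.47 (SE, edgeR adjusted p = 3.09e-05). An exact two-sided permutation test of the log2 levels gave a difference of 5.02 and p = 0.00952, the smallest value that 4 against 6 libraries allow. WT libraries held 125 to 187 CPM, so that the late AAV mean was 1283% of the WT mean (edgeR log2 fold change 3.68, adjusted p = 2.38e-08). Reads of the mouse vector transcript and of the endogenous gene both count towards Pkp2 here and were not separated.

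Desmosome partners rose with Pkp2. Of 9 desmosome genes tested, 6 were higher in late AAV and none was lower, with a median log2 fold change of 1.60 over the list, Pkp2 included. Desmoplakin (Dsp), which anchors intermediate filaments to the junction, was read at 413, 576, 1027 and 907 CPM in cKO and at 2066 to 3036 CPM in late AAV (median 2643), and the groups did not overlap. Its log2 fold change was 1.81 ± 0.25 (SE, edgeR adjusted p = 0.000165). The desmosomal cadherins desmoglein-2 (Dsg2) and desmocollin-2 (Dsc2), which bridge the gap between cells, rose from 57.9 ± 19.9 to 209 ± 35.1 CPM and from 39.7 ± 17.3 to 123 ± 17.1 CPM. Against WT, Dsp stood at 153% (edgeR adjusted p = 0.000144), while Dsg2 and Dsc2 stood at 94.9% and 112% (adjusted p = 0.558 and 0.197). Plakoglobin (Jup) and desmin (Des), the cardiac intermediate filament, were not called: Jup held 200.4 ± 45.7 CPM in cKO and 214 ± 19.6 in late AAV, and Des 1003 ± 376 and 1382 ± 206 (edgeR adjusted p = 0.737 and 0.141).

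The other junctions of the intercalated disc moved in part. N-cadherin (Cdh2), the cadherin of the adherens junction, held 257, 271, 431 and 295 CPM in cKO against 824 to 973 in late AAV (median 904), without overlap (edgeR log2 fold change 1.5, adjusted p = 3.89e-05). In a list of adherens junction and associated genes, not all of them parts of that junction, 7 of 15 tested were higher. Ctnna1 (0.80) and Ctnna3 (0.84) were among them. Another 3 of the list were lower, namely p120-catenin (Ctnnd1, -0.39), Lmna and Ilk. On log2(TPM + 1) none of the 15 was called lower. Connexin-43 (Gja1), the main gap junction channel of ventricular muscle, rose from 345 ± 134 to 936 ± 64.5 CPM (edgeR log2 fold change 1.41 ± 0.21 SE, adjusted p = 0.000271), which was 144% of WT. Connexin-40 (Gja5), of the conduction system, atrium and arteries, held 21.5 ± 6.34 and 18.4 ± 6.44 CPM and was not called (edgeR adjusted p = 0.444). Xirp2, an actin-binding protein of the disc and of stressed muscle, rose from 2208 ± 852 to 4532 ± 1295 CPM, 376% of the WT mean.

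**Figure D2:**
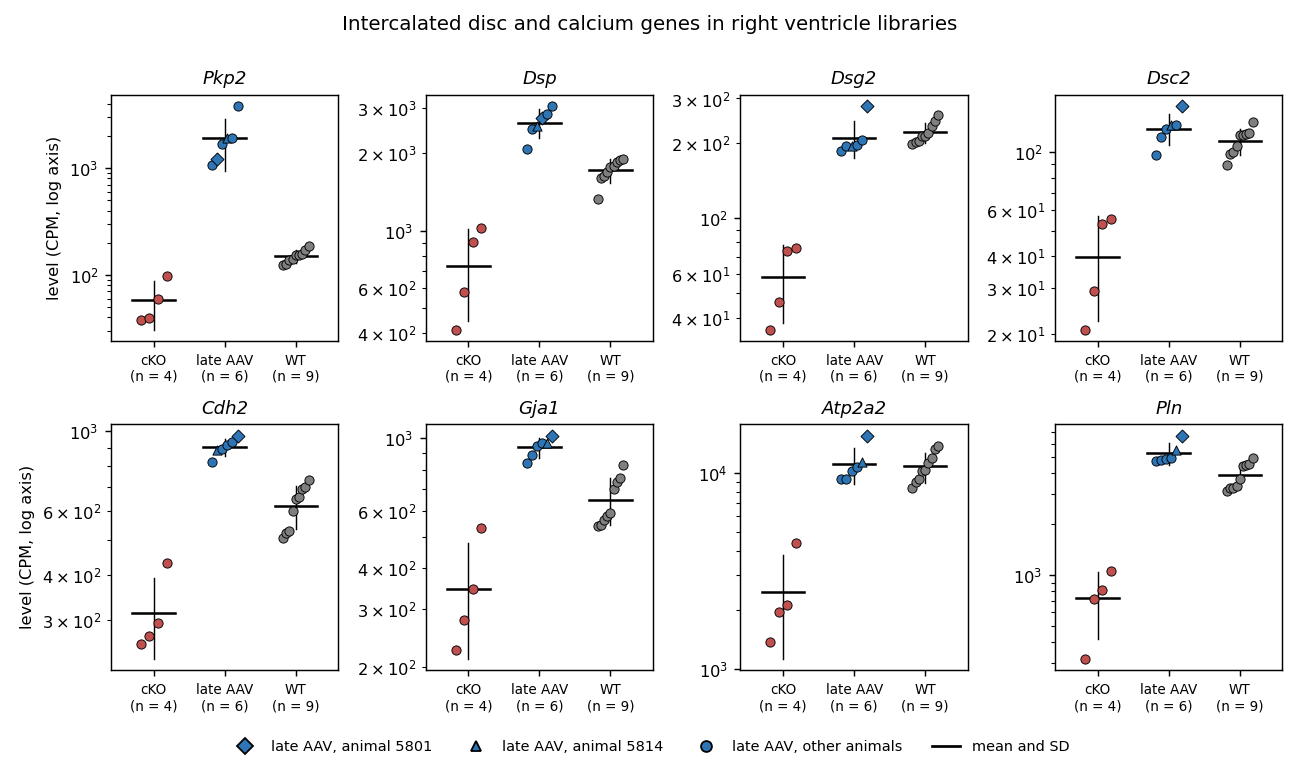
Level of 8 genes in each RV library (y axis, CPM, log axis) for cKO (n = 4), late AAV (n = 6) and WT (n = 9), with horizontal bars at the mean and vertical bars of 1 SD (its lower end drawn no lower than 0.5 of the lowest value). In all 8 panels every late AAV library lies above every cKO library, and the Pkp2 points of late AAV also lie above every WT library.

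Most of the ion channel genes called rose. Among 17 sodium and calcium channel genes tested, 10 were higher (8 without late_RV_5814) and none was lower, and among 20 potassium channel genes 11 were higher and 1 was lower. Fgf13, a regulator of cardiac sodium channels, was read at 14.56, 20.3, 21.9 and 14.9 CPM in cKO and at 76.5 to 111 CPM in late AAV (median 79.9), a log2 fold change of 2.21 ± 0.16 (SE, edgeR adjusted p = 1.58e-05). Cacna2d1, an auxiliary subunit of the L-type calcium channel, rose from 164 ± 36.0 to 517 ± 76.9 CPM, while the pore subunit Cacna1c was not called (698 ± 271 and 849 ± 119 CPM, edgeR adjusted p = 0.406). The inward rectifiers Kcnj2 and Kcnj3 rose 3.89-fold and 5.92-fold, Kcnip2, which shapes the early repolarising current, 2.97-fold, and the pacemaker channel Hcn4 2.29-fold, each without overlap. Against WT, 8 of 18 potassium channel genes tested were lower in late AAV and 2 were higher. Of all genes tested against WT, 18.5% were lower and 17.8% were higher.

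Calcium handling showed the same direction. Of 18 genes tested, 11 were higher and 2 were lower. Atp2a2, which encodes the pump that returns calcium to the sarcoplasmic reticulum, was read at 1371, 1937, 4400.4 and 2110.3 CPM in cKO and at 9283 to 15432 CPM in late AAV (median 10459.8). Its inhibitor phospholamban (Pln) held 316, 714, 1053 and 818 CPM in cKO and 4751 to 6705 in late AAV (median 4909). Neither gene overlapped between the groups, and the log2 fold changes were 2.14 ± 0.32 for Atp2a2 and 2.83 ± 0.30 for Pln (SE, edgeR adjusted p = 0.000285 and 4.65e-05). Atp2a2 stood at 103% of the WT mean and was not called against WT (edgeR adjusted p = 0.843), while Pln stood at 135% (0.00869). The release channel Ryr2 rose 2.19-fold and the calcium buffer Casq2 2.72-fold. Itpr2, the cardiomyocyte inositol trisphosphate receptor, fell from 178 ± 33.3 to 99.7 ± 8.64 CPM, and Atp2b4, the other gene that fell, lost its call without late_RV_5814.

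Sarcomere genes were higher throughout the called part of the list, at 17 of 23 tested with none lower and a median of 1.32. Tropomyosin Tpm1, which gates myosin on the thin filament, held 810.0, 682, 1527 and 1047 CPM in cKO and 3612 to 5218 CPM in late AAV (median 4129.7), with no overlap (edgeR log2 fold change 2.06 ± 0.24 SE, adjusted p = 6.24e-05). Cardiac actin (Actc1) rose 2.09-fold, myosin-binding protein C (Mybpc3) 1.8-fold and the myosin light chain kinase Mylk3 3.11-fold. α-Myosin (Myh6), the fast adult isoform, held 8514 ± 4789 CPM in cKO and 14897 ± 2889.6 in late AAV and was not called (edgeR adjusted p = 0.0738). Z-disc and stretch genes rose in 11 of 16 tested, among them myozenin-2 (Myoz2, 4.09-fold), the actin-anchoring protein Nrap (2.86-fold) and the LIM protein Csrp3 (2.36-fold), and the chaperone αB-crystallin (Cryab) was the only one that fell (0.631-fold), a call lost without late_RV_5814 (edgeR adjusted p = 0.0635). Of 5 cardiomyocyte markers 4 were called higher, and their summed level lay between 7646 and 23924 CPM in cKO and between 22444 and 35073 in late AAV. In whole tissue, fewer cells of a type and less RNA per cell cannot be told apart, and the part of cardiomyocyte content in the muscle gene results was not tested.

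Heart failure and natriuretic genes, a list that mixes peptides, receptors and other genes, had no common direction. Among 19 tested, 5 were higher, 2 were lower and the median was -0.03. Of all genes tested, 22.6% were higher and 25.2% were lower. Atrial natriuretic peptide (Nppa) was read at 402, 210.2, 304 and 581 CPM in cKO and at 30.2 to 636 CPM in late AAV (median 327), with overlap and no call (edgeR log2 fold change -0.10, adjusted p = 0.9). B-type natriuretic peptide (Nppb) held 105, 64.9, 123 and 87.6 CPM in cKO and 76.9 to 272 in late AAV (median 207). In Nppb 2 late AAV libraries lay within the cKO range and 4 above it, and the rise (edgeR log2 fold change 0.98, adjusted p = 0.0306) was lost without late_RV_5814 (0.0627). Ankrd1, a stretch-responsive titin partner, rose from 220.3 ± 51.9 to 654 ± 230.1 CPM (edgeR adjusted p = 0.0017). These genes stood above WT: Nppa at 521%, Nppb at 817% and Ankrd1 at 683% of the WT mean (edgeR adjusted p = 0.0305, 2.49e-05 and 3.1e-06). The vasoactive peptide endothelin-3 (Edn3) rose from 1.30 ± 1.61 to 33.1 ± 13.7 CPM, 688% of WT, the opioid precursor Penk from 0.557 ± 0.492 to 11.9 ± 6.19 CPM, and the angiotensin receptor Agtr1a 4.77-fold. The natriuretic peptide receptor Npr1 fell to 0.558 of its cKO mean and to 57.6% of WT.

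Paired genes that take each other's place were compared as shares of their summed TPM, a scale that allows for transcript length, in 12 pairs with exact two-sided permutation tests and Benjamini-Hochberg adjustment over the 12. β-Myosin (Myh7) made up 10.7%, 16.2%, 1.73% and 21.3% of the 2 cardiac myosins in cKO and 3.21% to 37.6% in late AAV (median 21.1%), with overlap. The difference of means, 8.62 percentage points, was not called (exact permutation adjusted p = 0.239). It was 5.03 to 12.2 points when 1 library was left out. The largest, without late_RV_5801, was not called either (exact permutation adjusted p = 0.0635). All late AAV libraries and 3 of the 4 cKO libraries lay above WT, where the share was 0.365% to 1.81%. As a level, Myh7 rose from 1541 ± 1168 to 6009 ± 3271 CPM with overlap (edgeR log2 fold change 1.94, adjusted p = 0.028) and stood at 3191% of WT (log2 fold change 5.00, adjusted p = 7.61e-07). Rpl3l, the striated muscle copy of a ribosomal protein, made up 1.29%, 5.35%, 13.4% and 3.78% of Rpl3l and Rpl3 in cKO against 15.9% to 48.8% in late AAV (median 24.0%) and 28.8% to 42.6% in WT. The share of Tpm2 in the tropomyosins fell from 2.13 ± 1.09% to 0.272 ± 0.0813%, and that of the heart isoform Cox6a2 of cytochrome oxidase rose from 85.6 ± 7.60% to 93.9 ± 0.715%, a difference of 8.32 percentage points that was 4.64 without cKO_RV_2006 (74.5%). In each of these 3 pairs the groups did not overlap (exact permutation adjusted p = 0.0190).

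Isoforms of fuel use shifted too. The share of the ubiquitous glucose transporter Slc2a1 against the insulin-regulated Slc2a4 fell from 16.7 ± 11.4% to 7.77 ± 1.25% (exact permutation adjusted p = 0.0190), that of hexokinase Hk1 against Hk2 from 55.9 ± 5.14% to 42.9 ± 7.38% and that of the liver-type Cpt1a against the muscle-type Cpt1b from 26.4 ± 11.3% to 11.7 ± 2.96% (exact permutation adjusted p = 0.0286 for both). Both calls were lost without cKO_RV_2006, cKO_RV_2052 or cKO_RV_3217 (exact permutation adjusted p = 0.0714 in each case), and that of Hk1 on shares of counts (0.0571). For Cpt1a the difference was -14.7 percentage points and -9.76 without cKO_RV_2006. The Slc2a1 share of cKO was 33.8% in cKO_RV_2006 and 10.1% to 11.7% in the other 3, and without it the difference was -3.26 percentage points in place of -8.96. Within the fibrillar collagens, the share of Col1a1 in Col1a1 and Col3a1 fell from 26.2 ± 2.95% to 16.3 ± 3.39%, beside 14.3 ± 2.91% in WT (exact permutation adjusted p = 0.0190). The fetal troponin Tnni1 was below 0.13% of the troponin I genes in every library and fell from 0.0664 ± 0.0429% to 0.00514 ± 0.00539% (exact permutation adjusted p = 0.0190), a difference of -0.0613 percentage points that was -0.0407 without cKO_RV_2052. Shares of Acta1 and Cox7a1 overlapped and were not called (exact permutation adjusted p = 0.239 and 0.152). Ldha held nearly all of Ldha and Ldhb in both groups and 99.9% in WT, Ldhb being at or near 0 in these counts. Whether the quantification lost reads of Ldhb was not tested, so that this share is uncertain.

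**Figure D3:**
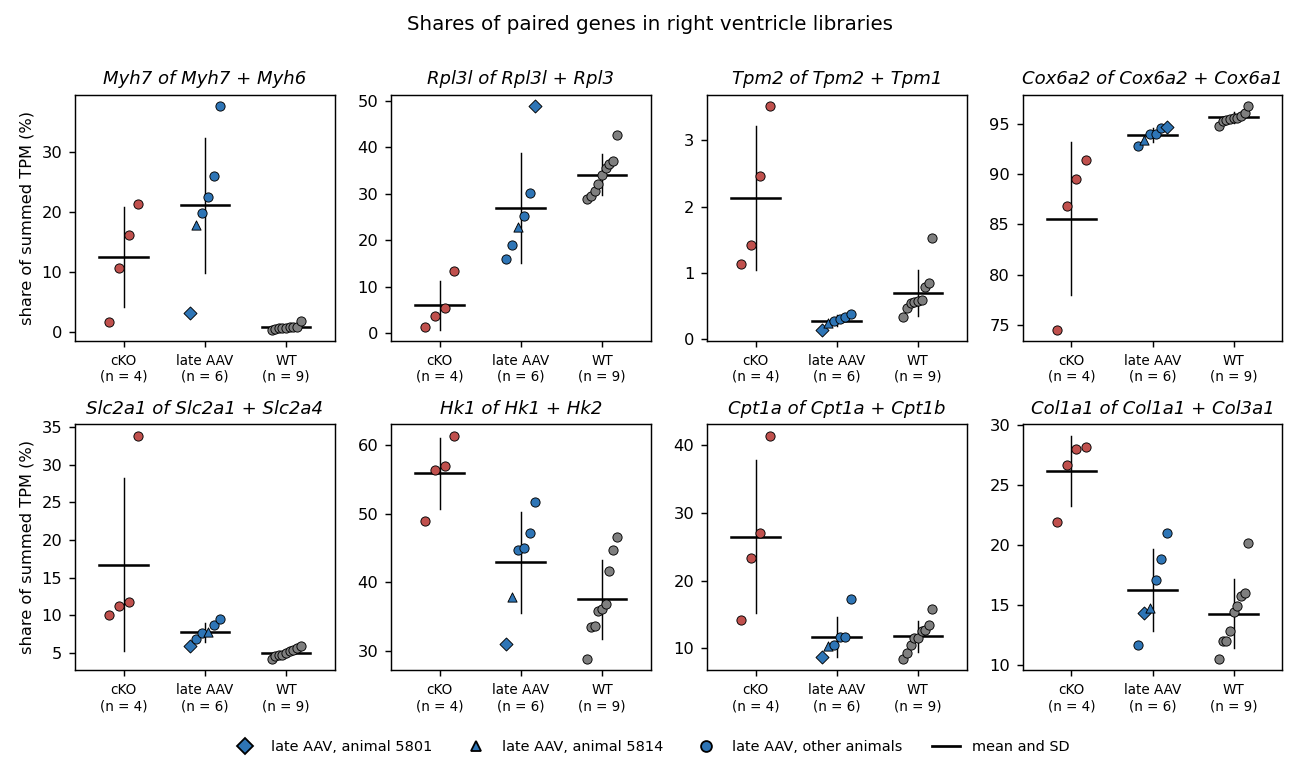
Share of the first gene in the summed TPM of 8 gene pairs (y axis, percent, axes not starting at 0 in every panel) in each RV library of cKO (n = 4), late AAV (n = 6) and WT (n = 9), with bars at the mean and 1 SD. Late AAV lies apart from cKO for Rpl3l, Tpm2, Cox6a2, Slc2a1 and Col1a1, while its Myh7 share overlaps that of cKO and lies above every WT library.

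Mitochondrial and fuel genes made the most even block of rises. Of 44 nuclear genes of oxidative phosphorylation tested, 42 were higher and none was lower (median 1.42), and of 34 genes of fatty acid uptake and oxidation 28 were higher (26 without late_RV_5814) and none was lower (median 1.47). Ndufs1, the largest subunit of complex I, held 127, 144, 271 and 181 CPM in cKO and 499 to 769.6 CPM in late AAV (median 566), and Acadm, which starts the oxidation of medium-chain fatty acids, held 47.1, 91.7, 182 and 139.7 CPM against 457 to 906 (median 574). Neither overlapped, and the log2 fold changes were 1.68 ± 0.21 and 2.40 ± 0.34 (SE, edgeR adjusted p = 9.72e-05 and 0.000201). Cytochrome c (Cycs) rose 4.57-fold, the cytochrome oxidase subunit Cox6c 5.54-fold, the ATP synthase subunit Atp5b 2.76-fold, lipoprotein lipase (Lpl) 4.51-fold and the fatty acid transporter Cd36 3.03-fold. The fatty acid carrier Fabp4 was not called (339 ± 80.6 and 412 ± 40.4 CPM, edgeR adjusted p = 0.21). Of 21 genes of the tricarboxylic acid cycle 19 rose, with Dld at 4.56-fold, and Idh3b was the only one that fell (0.723-fold). Branched-chain amino acid and ketone genes rose in 22 of 24, among them the ketone enzyme Oxct1 (4.45-fold) and the phosphatase Ppm1k (5.37-fold), which activates branched-chain keto acid breakdown. Glucose uptake and glycolysis rose in 12 of 22 (10 without late_RV_5814) and fell in 1, with Slc2a4 at 2.64-fold, phosphofructokinase Pfkm at 3.02-fold and the lactate transporter Slc16a1 at 4.31-fold. Nnt, a mitochondrial transhydrogenase that some C57BL/6 substrains lack in part, was read at 34.7, 19.3, 36.0 and 10.9 CPM in cKO, 157 to 402 in late AAV and 79.6 to 253 in WT, and whether substrain differed between the groups was not tested.

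Regulators of these programmes rose with them. Among 21 energy regulators, 13 were higher and 2 were lower. Esrrg, an oestrogen-related receptor that drives mitochondrial genes, held 20.3, 25.3, 29.96 and 27.8 CPM in cKO and 104 to 136 CPM in late AAV (median 120.1), a log2 fold change of 2.19 ± 0.13 (SE, edgeR adjusted p = 1.17e-05). The coactivator Ppargc1a rose 3.29-fold, Ppara 3.39-fold, the muscle regulator Perm1 3.60-fold and Pdk4, a brake on glucose oxidation, 3.87-fold. Nrf1, a transcription factor of respiratory genes, fell from 37.5 ± 6.96 to 22.9 ± 2.47 CPM, without overlap, and to 61.0% of WT. Cardiac transcription factors were higher in 13 of 20 with none lower, for example Tbx5 (4.01-fold), Prox1 (2.64-fold) and the homeodomain protein Hopx (7.59-fold). Of 23 Hippo and Wnt genes 6 rose and none fell, with a median of -0.03 that was 0.26 on log2(TPM + 1). Tead1, the main Hippo-pathway DNA-binding partner in heart muscle, rose from 133 ± 33.9 to 518 ± 65.1 CPM, 206% of WT (edgeR adjusted p = 0.000451 against WT). Mitochondrially encoded genes took 24.4 ± 1.07% of counts in cKO and 29.8 ± 4.08% in late AAV, with overlap (exact permutation p = 0.0286), and 29.4 ± 3.63% in WT. As a share of TPM they took 30.4 ± 2.39% in cKO and 46.3 ± 4.64% in late AAV, without overlap (exact permutation p = 0.00952), and 44.1 ± 4.24% in WT.

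Extracellular matrix genes fell. Of 21 collagen genes tested, 16 were lower and none was higher, with a median of -1.79, and the libraries of the groups did not overlap for those 16. Col1a1 (chr11:94827050-94843868, GRCm39), a chain of type I collagen, was read at 2187, 1168, 1273 and 1989.9 CPM in cKO and at 53.8 to 172 CPM in late AAV (median 129). Col3a1 (type III collagen) held 2935, 2257, 2266 and 4910.5 CPM in cKO and 168 to 571 in late AAV (median 476). The log2 fold changes were -3.74 ± 0.30 and -2.91 ± 0.34 (SE, edgeR adjusted p = 1.72e-05 and 7.01e-05), and both genes stayed at 227% of WT (adjusted p = 0.00172 and 0.00181). Col18a1, which yields the angiogenesis inhibitor endostatin, fell from 44.9 ± 5.41 to 10.6 ± 1.8 CPM, near its WT level of 11.9 ± 3.21, and Col8a1 fell to 0.395 of cKO while staying at 419.6% of WT.

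Matricellular genes, whose products sit in the matrix and signal from it, fell in 12 of 25 and rose in none against cKO, but 19 of 24 were higher than in WT and none was lower (background 17.8% higher of genes tested against WT). Tenascin-C (Tnc) held 585, 181, 676 and 304 CPM in cKO and 5.93 to 29.4 in late AAV (median 22.5), a log2 fold change of -4.39 ± 0.44 (SE, edgeR adjusted p = 3.61e-05), and its mean was 613% of WT. Periostin (Postn), a marker of activated fibroblasts, fell from 1319 ± 523 to 369 ± 150.1 CPM, 497% of WT, and fibronectin (Fn1) from 1789 ± 663 to 205 ± 58.4 CPM, 151% of WT. Cthrc1, which marks matrix-producing fibroblasts, fell from 28.9 ± 9.84 to 1.10 ± 0.370 CPM. Thbs4, Cilp and Comp were not called against cKO (84.3 ± 71.6 and 60.3 ± 30.5 CPM for Thbs4, 256 ± 247 and 138 ± 62.5 for Cilp, 21.1 ± 26.2 and 39.0 ± 22.5 for Comp) and stood at 1520.4%, 1166% and 1444% of WT (edgeR adjusted p = 4.43e-06, 9.49e-06 and 4.16e-05). The spread of these 3 genes in cKO was set largely by cKO_RV_3217, the highest of the 4 for each.

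Of 23 crosslinking and proteolysis genes 15 fell and 2 rose. Lysyl oxidase (Lox), which crosslinks collagen, fell from 309.7 ± 115 to 38.2 ± 13.3 CPM (0.123 of cKO, 381% of WT), and the membrane protease Mmp14 fell to 0.244 of cKO. Timp1, a protease inhibitor of remodelling tissue, was read at 39.4, 11.7, 36.1 and 25.1 CPM in cKO and at 1.48 to 11.8 CPM in late AAV (median 7.69). The groups overlapped by 1 library on each side, and the fall (edgeR log2 fold change -1.99, adjusted p = 0.00319) left the mean at 822% of WT. Timp4, the heart-enriched inhibitor, rose 2.67-fold to 49.6% of WT, and Mmp3 rose 2.77-fold, a call lost without late_RV_5814 (edgeR adjusted p = 0.0604). Among 21 genes of the TGF-beta pathway 5 fell and 1 rose, with a median of -0.26 that was 0.07 on log2(TPM + 1). The gene that rose, Tgfbr3, lost its call without late_RV_5814. It lost it in 12 of the 21 alternatives other than the length covariate, over which its log2 fold change was 0.32 to 0.57. Tgfb1 fell from 61.3 ± 8.18 to 22.8 ± 2.56 CPM, near WT at 22.1 ± 4.20, while Tgfb2 (60.1 ± 7.05 and 84.8 ± 23.7) and Tgfb3 (109.7 ± 68.1 and 65.0 ± 19.7) were not called and stood at 250.2% and 238% of WT.

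Markers of activated fibroblasts fell in 9 of 19 and rose in none. Meox1 fell to 0.445 and Runx1 to 0.314 of cKO, both transcription factors of the activated state, while smooth muscle actin (Acta2) held 136 ± 19.0 and 146 ± 39.6 CPM and was not called (edgeR adjusted p = 0.797). Resident fibroblast genes rose in 4 of 14 and fell in 1, with gelsolin (Gsn, 2.51-fold) and the ferritin receptor Scara5 (2.85-fold) among those that rose. Of 6 fibroblast markers 1 was called higher and 1 lower, and their summed level was 2154 to 4386 CPM in cKO and 1736 to 4074 CPM in late AAV.

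Macrophage genes fell. Of 28 tested, 22 were lower and 2 were higher, with a median of -1.87. Ccr2, the chemokine receptor of recruited monocytes, held 126, 112, 169.9 and 247 CPM in cKO and 27.1 to 42.5 in late AAV (median 35.1). Trem2, a lipid receptor of tissue-repair macrophages, held 60.8, 28.4, 17.5 and 34.8 CPM against 0.889 to 2.59 (median 1.89). Both were without overlap, with log2 fold changes of -2.25 ± 0.20 and -4.30 ± 0.35 (SE, edgeR adjusted p = 2.85e-05 and 1.75e-05), and stood at 106% and 85.1% of WT. Adgre1 (listed as Emr1), the pan-macrophage marker F4/80, fell to 0.262 and galectin-3 (Lgals3) to 0.103 of cKO. Osteopontin (Spp1, chr5:104582165-104589235, GRCm39), a secreted protein of injury macrophages, held 705, 126, 146 and 89.9 CPM in cKO and 1.48 to 11.2 CPM in late AAV (median 4.78), a log2 fold change of -5.70 ± 0.67 (SE, edgeR adjusted p = 7.27e-05), and stayed at 1124% of a low WT level of 0.458 ± 0.329 CPM. Cd163, a marker of resident macrophages, rose from 11.8 ± 4.56 to 21.2 ± 2.89 CPM, still 68.7% of WT. Retnla, the other gene that rose, had 1 count in the 4 cKO libraries together. The 5 macrophage markers summed to 391 to 904 CPM in cKO and 183 to 292 CPM in late AAV, without overlap.

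**Figure D4:**
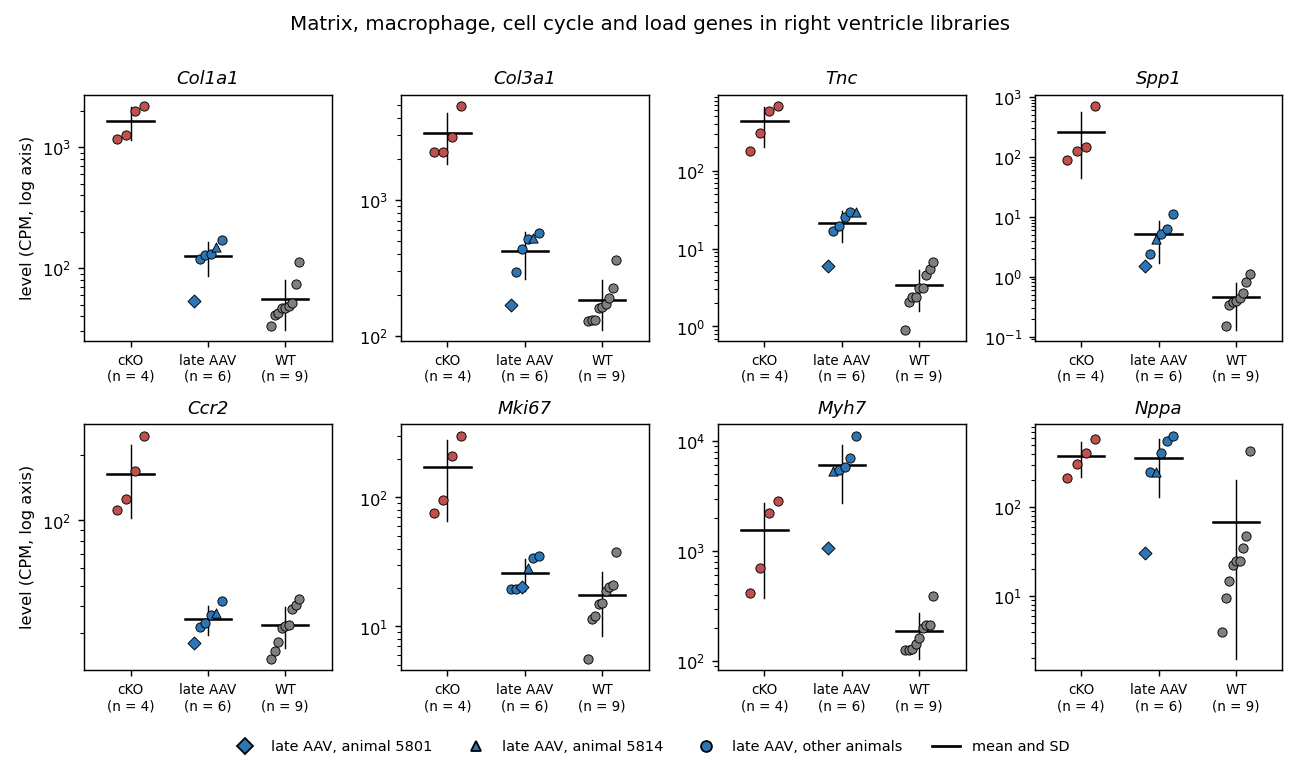
Level of 8 genes in each RV library (y axis, CPM, log axis) for cKO (n = 4), late AAV (n = 6) and WT (n = 9), with bars at the mean and 1 SD (its lower end drawn no lower than 0.5 of the lowest value); WT libraries at 0 CPM are not drawn. The 6 late AAV libraries lie below the cKO libraries for Col1a1, Col3a1, Tnc, Spp1, Ccr2 and Mki67, and overlap them for Myh7 and Nppa, where late_RV_5801 (diamond) is the lowest late AAV library.

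Among chemokines and cytokines 8 of 21 fell and 2 rose. Ccl2, which recruits monocytes, fell from 13.8 ± 12.3 to 3.36 ± 1.15 CPM with overlap, while the B-cell chemokine Cxcl13 rose from 0.352 ± 0.195 to 7.003 ± 4.51 CPM and the eosinophil chemokine Ccl11 from 0.838 ± 0.848 to 4.94 ± 4.69 CPM. None of 9 lymphocyte genes tested was called. Of 18 complement genes 6 were lower and 4 were higher, near the 25.2% and 22.6% of all genes tested. C3, the central complement protein, held 178, 185, 199.7 and 776 CPM in cKO and 491 to 1511 CPM in late AAV (edgeR log2 fold change 1.45, adjusted p = 0.0216), and C7 rose 5.39-fold, whereas the receptor C3ar1 fell to 0.140 of cKO. MHC genes of antigen presentation fell in 10 of 18, in 8 without late_RV_5814 and in 2 on log2(TPM + 1).

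Interferon-stimulated genes fell in 16 of 32 and rose in 1. Mx1 and Oas3, antiviral effectors, fell to 0.180 and 0.163 of cKO, the RNA sensor Ddx58 to 0.549, and Isg15, a ubiquitin-like modifier, was read at 7.55, 9.20, 16.4 and 9.02 CPM in cKO and at 1.87 to 6.22 CPM in late AAV (median 3.53), without overlap (edgeR log2 fold change -1.5, adjusted p = 0.00277). Iigp1, an interferon-induced GTPase, rose 2.25-fold. Interferon genes are known for a promoter element that binds STAT and IRF factors, and 2 promoters of the list are shown because both genes fell and both hold it. The interferon-stimulated response element (GAAA, any 2 bases, GAAA) was searched on both strands in RefSeq windows of 250 bases before to 50 after each gene's start (GRCm38.p6). It occurred in 16 of the 23 tested members with a window (69.6%) and in 3.89% of all tested genes with a window. The share was 4.68% for genes that fell and 2.74% for genes that rose, and 3.44% over all 32851 windows. A gene counted if any of its windows held the element. The 250 bases before the start are given 5′ to 3′ on the gene's strand, with the matches in capitals, for Isg15 at chr4:156200819-156201068 (minus strand, 3 overlapping matches) and Oas3 at chr5:120777660-120777909 (minus strand).
Isg15: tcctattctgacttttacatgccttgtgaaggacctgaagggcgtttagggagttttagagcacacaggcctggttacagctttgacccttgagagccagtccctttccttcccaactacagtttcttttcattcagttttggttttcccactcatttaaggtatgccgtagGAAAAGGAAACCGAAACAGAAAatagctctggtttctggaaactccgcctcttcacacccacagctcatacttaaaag
Oas3: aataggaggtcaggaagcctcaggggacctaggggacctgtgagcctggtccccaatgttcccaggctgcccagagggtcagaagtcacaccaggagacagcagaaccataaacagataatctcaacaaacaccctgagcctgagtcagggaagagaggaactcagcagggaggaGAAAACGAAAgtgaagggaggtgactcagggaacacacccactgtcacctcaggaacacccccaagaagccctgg

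Cell cycle genes fell in 25 of 29 (22 without late_RV_5814) and rose in 1, with a median of -2.37. Mki67, the proliferation antigen Ki-67, held 302, 95.4, 211 and 76.2 CPM in cKO and 19.4 to 35.3 CPM in late AAV (median 24.3), and Top2a, the topoisomerase of dividing cells, 115, 32.7, 79.9 and 29.1 CPM against 6.07 to 14.97 (median 10.6). Neither overlapped, and the log2 fold changes were -2.73 ± 0.36 and -2.66 ± 0.39 (SE, edgeR adjusted p = 0.000125 and 0.000246). Cyclin A2 (Ccna2) fell to 0.141 of cKO. Cenpf, a kinetochore protein, went the other way, from 70.7, 36.3, 75.7 and 21.6 CPM in cKO to 109 to 265 in late AAV, and WT held 158 to 259.6 CPM. The p53 target and cell cycle inhibitor Cdkn1a fell to 0.490 of cKO, with overlap, while Ccng1, another p53 target, rose from 313 ± 145 to 1540.3 ± 191 CPM; of the 18 p53 and senescence genes 9 fell and 2 rose. Many genes of mitosis carry the letters TTTGAA, the cell cycle homology region, near their start. In the same RefSeq windows and on both strands they occurred in 12 of 24 tested members (50%) and in 17.9% of all windows, and CCAAT in 20 of 24 (83.3%) and 37.4%. Over the 9 sequences searched, the share of genes with a match differed by at most 1.94 percentage points between genes that rose and genes that fell. The promoters of Mki67 (chr7:135716380-135716629, minus strand) and Top2a (chr11:99024190-99024439, minus strand) are shown as above, with TTTGAA or its complement in capitals.
Mki67: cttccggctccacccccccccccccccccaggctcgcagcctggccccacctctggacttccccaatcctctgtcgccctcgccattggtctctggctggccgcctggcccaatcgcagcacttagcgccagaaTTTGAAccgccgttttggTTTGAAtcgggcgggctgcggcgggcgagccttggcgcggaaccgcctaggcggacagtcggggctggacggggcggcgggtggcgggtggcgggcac
Top2a: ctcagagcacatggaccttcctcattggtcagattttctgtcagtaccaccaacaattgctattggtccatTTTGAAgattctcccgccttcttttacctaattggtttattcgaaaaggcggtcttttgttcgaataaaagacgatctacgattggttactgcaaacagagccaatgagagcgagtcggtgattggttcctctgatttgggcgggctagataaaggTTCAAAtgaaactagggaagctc

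The counts of stress and early response genes that fell depended on late_RV_5814 and on the scale. Of 20 genes of the integrated stress response 7 fell (4 without late_RV_5814 and 3 on log2(TPM + 1)) and 1 rose. Of all genes tested with all libraries, 25.2% fell in edgeR. Atf3, a stress transcription factor, fell to 0.278 of cKO. Immediate early genes fell in 8 of 16 (6 without late_RV_5814), among them Fos (0.369), Junb (0.372) and Myc (0.546). On log2(TPM + 1) 3 fell and 2 rose, and the list median was 0.01 against -0.44 in edgeR. In the gp130 cytokine response, 4 of 13 fell and 2 rose, and without late_RV_5814 2 fell and 1 rose. Socs3, a feedback inhibitor of that receptor, fell to 0.223 of cKO, and Sprr1a, an injury-induced protein of cardiomyocytes, held 30.8 ± 19.1 and 7.86 ± 5.90 CPM, a call lost without late_RV_5814 (edgeR adjusted p = 0.0259 with it and 0.0528 without). Hspa1b, a heat shock protein, held 813 CPM in cKO_RV_2006 and 5.36 to 10.9 CPM in the other 3, against 0.741 to 3.57 in late AAV; without cKO_RV_2006 its edgeR log2 fold change was -1.83 and the gene was still called. Clock genes rose in 6 of 18 and fell in 1. Ribosomal proteins fell in 10 of 22 (7 without late_RV_5814) and rose in 2, but on log2(TPM + 1) only 1 fell.

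Endothelial genes fell in 11 of 22, and Prox1, which cardiomyocytes also express, rose (9 of 22 fell without late_RV_5814 and 5 on log2(TPM + 1)). Against WT 15 of 22 were lower, beside 18.5% of all genes tested against WT. The junction protein Esam held 53.1, 63.3, 53.6 and 50.6 CPM in cKO and 23.9 to 28.1 CPM in late AAV (median 26.5), beside 50.8 ± 6.48 in WT, and nitric oxide synthase Nos3 fell from 42.8 ± 7.79 to 22.6 ± 3.06 CPM, beside 37.7 ± 10.1 in WT. Both were below cKO and below WT (edgeR adjusted p = 3.13e-05 and 3.78e-06 for Esam, 0.000376 and 0.00245 for Nos3). Of 5 endothelial markers 3 were called lower, and their sum was 1051 to 1654 CPM in cKO and 839 to 1157 in late AAV. Schwann cell and neuron genes rose in 2 of 9 and fell in 1. Cdh19, a cadherin of Schwann cells, rose from 13.3 ± 3.68 to 28.7 ± 5.54 CPM, 72.3% of WT. Pericyte and smooth muscle genes fell in 3 of 12 and rose in 1, adipocyte genes in 1 and 2 of 6, mesothelial genes in 1 and 0 of 3, blood genes in 1 and 0 of 7 and atrial genes in 0 and 1 of 7. The adipocyte markers Adipoq and Plin1 were at 0 in all cKO libraries, and the 3 adipocyte markers summed to at most 0.350 CPM in late AAV. None of 5 sex-linked genes was called.

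The largest changes among genes with separate libraries and a mean of at least 10 CPM in the higher group included, besides the genes above, rises of myotilin (Myot), a Z-disc protein (8.31-fold), Inmt, an amine methyltransferase (1.754 ± 1.97 to 14.9 ± 7.37 CPM), Cacna1s, the skeletal calcium channel (2.10 ± 1.79 to 16.1 ± 2.29 CPM, 100.4% of WT), and Ryr3, a calcium release channel (1.09 ± 1.5 to 10.9 ± 5.22 CPM, 703% of WT). Falls included P4ha3, a collagen hydroxylase, to 0.0273 of cKO and the macrophage proton pump subunit Atp6v0d2 to 0.0307. The receptor Tlr1 (13.1 ± 5.49 CPM in cKO) was at 0 in late AAV except in late_RV_5814 (2.16 CPM), and the histone gene Hist1h3i (10.4 ± 5.08 CPM in cKO) except in late_RV_5755 (1.04 CPM), so that the size of either fall rests on 1 library. Gm15501, Gm10108, Igdcc4 and Rps27 were at 0 in all 6 late AAV libraries, at least 102-fold, 56.8-fold, 49.3-fold and 60.9-fold lower than the cKO mean with a floor of 3 counts per library, and Rps27rt was at 0 in all 4 cKO libraries and at least 94.7-fold higher in late AAV. These genes are uncertain. Rps27, Rps27rt and Gm15501 are copies of 1 ribosomal protein between which reads can be split, their sum was 57.8 ± 19.6 CPM in cKO and 30.1 ± 5.58 in late AAV (exact permutation p = 0.0190), and 2, 7 and 8 of the 9 WT libraries were at 0 for them.

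The 6 late AAV libraries were not alike. late_RV_5801 stood apart towards WT in matrix, natriuretic peptide and myosin genes. Its Col1a1 was 53.8 CPM against 119.7 to 172 in the other 5, its Nppa 30.2 against 245 to 636 and its Myh7 1062 against 5399 to 11216. Its Myh6 was 20569 against 12725 to 14687. It was the lowest of the 6 for 21 of 21 collagens, 22 of 25 matricellular genes and 15 of 18 complement genes, and the highest for 42 of 44 oxidative phosphorylation genes and 22 of 24 genes of branched-chain amino acid and ketone use. Over all genes tested it was the lowest for 21.1% and the highest for 23.3%. Its Pkp2 level of 1206 CPM was the second lowest of the 6, above late_RV_5807 (1069), and late_RV_5810, with 3793 CPM, had the highest Myh7. late_RV_5806 was the lowest for 20.49% of all genes tested and the highest for 20.85%. It was the lowest for 25 of 32 interferon-stimulated genes and 15 of 23 sarcomere genes, and the highest for 12 of 14 resident fibroblast genes. For MHC genes late_RV_5807 was the highest in 16 of 18. These rankings are descriptions of single animals and carry no test. Without late_RV_5801 edgeR called 6085 genes.

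The LV of the same animals gave fewer calls. Of 13768 genes tested in the LV, 4586 (33.3%) were called, 2391 higher and 2195 lower. A test of the RV effect minus the LV effect called none of 14575 genes by edgeR, with 913 at an unadjusted p under 0.05, and none with the animal as a block, with 1676; DESeq2 called 12. By the labels both ventricles come from the same animals, but the sex-linked genes of late_RV_5814 went against those of its LV library. A missing call does not show that the effects were alike. The edgeR log2 fold changes in RV and LV were 5.01 and 5.11 for Pkp2, 2.83 and 2.65 for Pln, 2.40 and 2.32 for Acadm, -3.74 and -3.37 for Col1a1 and -5.70 and -6.59 for Spp1. Some lists had fewer calls in the LV. MHC genes were lower in 1 of 18 against 10 of 18 in the RV (medians -0.15 and -0.80). Endothelial genes were lower in 3 of 22 against 11 of 22, and interferon-stimulated genes in 7 of 33 against 16 of 32. Of all genes tested, 15.9% were lower in the LV and 25.2% in the RV. The differences of these lists between ventricles were not tested. Ryr3 had a log2 fold change of 3.34 in the RV and -0.13 in the LV, and its difference was not called (edgeR adjusted p = 0.806).

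**Figure D5:**
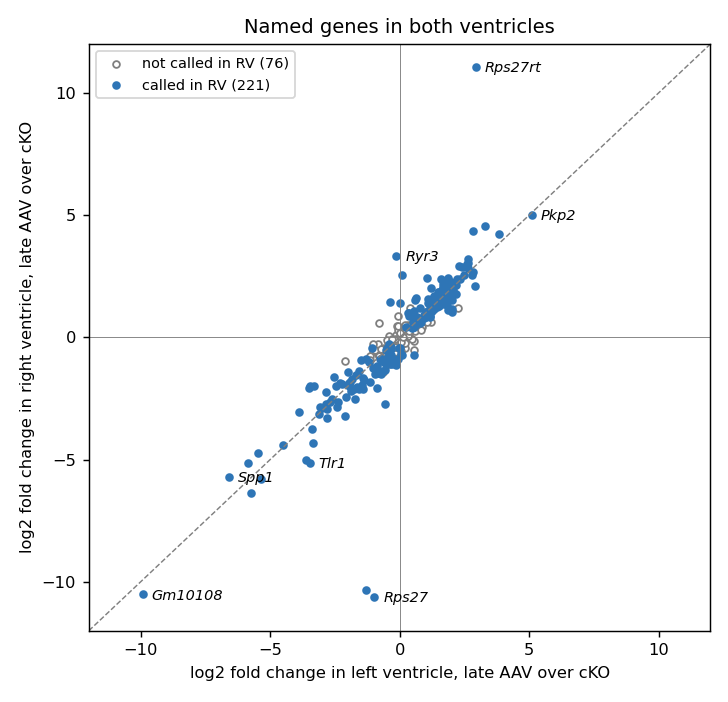
Log2 fold change of late AAV over cKO in the LV (x axis) and the RV (y axis) for the named genes tested in both ventricles, with filled points for the 221 called in the RV, open points for the 76 not called and a dashed line of equal change. Most points lie near the line; Rps27, Rps27rt and Ryr3 lie away from it.

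Against WT of the same time after induction, the RV of late AAV still differed, with 4877 of 13452 genes called by edgeR (36.3%), 2388 higher (17.8%) and 2489 lower (18.5%), of which 700 exceeded 2-fold. This comparison shares the late AAV libraries with the one above. Relative effective length separated late AAV from WT (0.022 to 0.074) as well, so that its part in the values against WT cannot be told apart from that of the group. Medians over WT were 0.17 for oxidative phosphorylation, -0.13 for fatty acid use and 0.18 for the tricarboxylic acid cycle, beside 1.42, 1.47 and 1.53 over cKO. Collagens (median 0.67, 11 of 19 higher), matricellular genes (1.5) and crosslinking and proteolysis genes (0.70, 12 of 22 higher) lay above WT. Of 28 macrophage genes in the list 26 were tested against WT, and 8 were higher and 3 were lower. Z-disc and stretch genes were higher in 13 of 16.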

How the data were processed

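Bulk RNA sequencing of both ventricles of 32 mice had given 64 libraries, of which the 6 late AAV and 4 cKO RV libraries were compared and the 9 WT RV libraries and the LV libraries of the same 10 animals served as references. Groups, ventricles and animals came from the labels, which make each library of a ventricle a separate animal. The authors trimmed reads with fastp, quantified them with Salmon 1.8.0 (sequence, GC and positional bias correction) against GRCm39 and collapsed transcripts into genes using tximport. Estimated counts for each gene, as deposited, were rounded here. TPM are those that the authors deposited from the same runs. For the tests on log2 TPM they were rescaled to a common sum per library after the mitochondrially encoded genes were left out. The mitochondrial share of TPM was taken before that step. The deposited length table, per the file headers, holds effective lengths per gene and library. The labels name polyadenylated RNA and the protocol a ribosomal depletion kit. Of 39153 rows 12237 had no counts, and 1 row without a gene name (at most 0.00136% of a library) and the 37 mitochondrially encoded genes were left out.

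Genes were tested with edgeR 4.0.16 in R 4.3.3 (TMM, filterByExpr, quasi-likelihood F test, Benjamini-Hochberg adjustment over all genes tested, threshold 0.05). Only the libraries compared entered each fit. Alternatives used DESeq2 1.42.0, limma 3.58.1 on log2(TPM + 1), other filters and scalings, covariates and the removal of each library. Pkp2, the mitochondrial share and the isoform shares were tested with exact two-sided permutation tests over libraries (scipy 1.17.1). Ventricles pair by animal in the labels. After group means were removed, the correlation between both ventricles of 1 animal ran from -0.037 to 0.533 and was below 0.1 in 3 of the 10 animals. For animals 5807 (-0.002) and 5814 (-0.037) the RV correlated better with the LV of another animal of the group. The scripts were tested on simulated data. Named genes were Pkp2, the 5 genes the study followed by RT-qPCR, anchors and smallest-p members of each of 44 lists, members against a list's direction, and the 10 largest rises and falls among separated genes with a mean of at least 10 CPM in the higher group. The members and lists were chosen with earlier results of these data known. Gene coordinates are from GENCODE on GRCm39, and promoters from RefSeq on GRCm38.p6. A floor of 3 counts per library covers counting error only.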

Additional observations from a re-analysis of the deposited data

Results flagged for a closer look

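Among 302 groups of values, 39 held a library whose distance from its nearest neighbour was large for the range of its group (Dixon's test, on log2(CPM + 1) for genes and on percent for shares). Chance gives about 1 in 20. Values are CPM of that library.

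The late AAV library late_RV_5801 gave 18 of the 39. It was the lowest of its group for Myh7 (1062), Nppa (30.2), Col1a1 (53.8), Tnc (5.93), Comp (5.78), Thbs4 (8.00), Cilp (28.9), Tgfb2 (38.1) and Lgals3 (2.22). It was the highest for Dsg2 (279), Fgf13 (111), Cacna2d1 (668), Kcnj3 (319.9), Myh6 (20569), Ccl11 (14.4), Ndufs1 (769.6), Atp5b (2994) and Ppm1k (485).

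Library late_RV_5806 stood apart for Gja5 (31.1), Myoz2 (893), Gsn (1500.3), Socs3 (3.15) and the share of Cpt1a in Cpt1a and Cpt1b (17.3%). Library late_RV_5810 did so for Itpr2 (117) and Pdk4 (107), late_RV_5814 for Tlr1 (2.16) and the share of Ldha (99.87%), late_RV_5755 for Hist1h3i (1.04) and late_RV_5807 for the share of Tnni1 (0.0155%).

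In cKO, cKO_RV_2006 stood apart for Mylk3 (65.0), Prox1 (35.9), Atf3 (39.4), Hspa1b (813) and the share of Slc2a1 (33.8%). The others were cKO_RV_2052 for Cthrc1 (14.4), cKO_RV_3213 for Gm10108 (32.8), and cKO_RV_3217 for C3 (776), Cd36 (713) and the share of Ldha (99.95%).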

How the results depend on the processing

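The count of genes called between late AAV and cKO in RV stayed within 1.5 times of 6659 under the other normalizations, filters and scalings, DESeq2 (6959) and the removal of any 1 library (5932 to 6568). It was 0 with relative effective length as a covariate and 3227 with an unequal-variance test on log2(TPM + 1), and the cause was not tested. For the RV effect minus the LV effect, DESeq2 called 12 genes, and edgeR called 0 with and without the replicate block. The block, which pairs the ventricles of an animal, changed no call. The count against WT stayed within 1.5 times under all alternatives run.

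The rise in the mitochondrial share was 4.24 to 6.49 percentage points when 1 library was left out, and its exact permutation p was above 0.05 without cKO_RV_2052 or cKO_RV_3217 (0.0714 for both). As a share of TPM the rise was 15.9 points. For the isoform pairs, a log2 ratio could not be formed for Tnni1 and Ldha, where a gene was at 0 in a library. Of the 126 called genes given with values, 85 kept their call under the 21 alternatives other than the length covariate, 41 lost it under at least 1, and none changed sign.

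Log2 fold changes of uncalled genes that changed sign were -0.012 (strict filter) and -0.0643 to 0.19 (1 library left out) for Jup, 0.0098 (log2(TPM + 1) with either test) and 0.0106 (log2(TPM + 0.1)) for Gja5, 0.14 (length offsets) and -0.33 to 0.18 (1 library left out) for Nppa, -0.78 to 0.26 for Thbs4 and -1.21 to 0.0159 for Cilp (1 library left out), and -0.0044 (strict filter) for Acta2. With the length covariate the sign changed for Jup (-0.79), Cacna1c (-0.40), Kcnip2 (-1.42), Myh6 (-0.50), Mybpc3 (-0.42), Nppa (0.70), Comp (-0.99), Timp1 (0.0285), Gsn (-0.65), Scara5 (-0.15), Lgals3 (0.38), Ccl2 (1.02), Iigp1 (-0.37), Cdkn1a (0.11), Fabp4 (-0.87), Nrf1 (0.0228), Slc2a4 (-0.49), Prox1 (-0.42), Atf3 (0.17), Myc (0.70), Sprr1a (0.87) and Hspa1b (7.57). Genes read at a few counts per library, such as Retnla and Tnni1, are limited by depth.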
